A study of Mus musculus with 3 samples.

Results

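Glutathione, thioredoxin and antioxidant genes were followed through the formation of mouse osteoclasts. The members are the genes whose symbols mark them as glutathione transferases (Gst), glutathione peroxidases (Gpx), peroxiredoxins (Prdx), thioredoxins with their reductases and domain proteins (Txn), glutaredoxins (Glrx) or superoxide dismutases (Sod1, Sod2 and Sod3). Catalase (Cat), the glutathione synthesis and recycling enzymes (Gclc, Gclm, Gss and Gsr), sulfiredoxin (Srxn1), Nqo1, and the regulators Nfe2l2 and Keap1 complete the set. The rule used symbols alone, and it found 58 genes, measured by 103 probe sets, among the 12393 genes of the array.

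The study followed C57/BL6 bone marrow cells on 3 Affymetrix arrays. The cells were first grown for 3 days in human M-CSF (50 ng/ml), a growth factor that turns marrow cells into macrophages, and all groups share that treatment. The 3 groups then had human RANKL (150 ng/ml), the cytokine that turns such macrophages into bone-resorbing osteoclasts, for 0, 24 or 72 h, and the labels call them precursors, differentiating precursors and osteoclasts in that order. Each time was measured on 1 array, so differences have no replicate check and were not tested, and both comparisons with 0 h share the same 0 h array. Cells kept for 24 or 72 h without RANKL were not among the samples, so RANKL and time in culture cannot be told apart. The labels do not say whether the marrow of several mice was pooled.

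Glutathione is a small thiol that cells keep at high concentration. Glutathione peroxidases use it to reduce peroxides, transferases join it to reactive compounds, and glutathione reductase recycles it with NADPH. Thioredoxin and peroxiredoxins form a parallel system, also fed by NADPH through thioredoxin reductase. NRF2, the product of Nfe2l2, is the transcription factor that drives many of these genes, and KEAP1 marks it for destruction until oxidants or electrophiles release it. In osteoclast precursors reactive oxygen species are known to act as messengers downstream of RANKL, and mice that lack NRF2 form osteoclasts more readily.

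Signals were scaled so that all arrays share 1 median, because the deposited signals lay higher at 24 and 72 h than at 0 h by a median of 0.73 and 0.77 on the log2 scale. A gene is represented by its brightest probe set, and a signal at or under a floor of 29.6 scaled units, below which 40% of the pooled signals lay, counts as not measured. A gene is called higher or lower from a log2 difference of 1 (2-fold) onward, and a fold against an array at the floor is a lower bound, written "at least". The only error at hand is technical: 2 probe sets of the same gene differed with an SD, per probe set and on the log2 scale, of 0.41 over 2727 genes when 24 h was set against 0 h. The SD was 0.49 over 2702 genes at 72 h against 0 h, and 0.36 over 2785 genes between 72 and 24 h. Among the members alone these SDs were 0.34 (24 genes), 0.36 (24 genes) and 0.29 (25 genes). The 2-fold threshold lies beyond 2 SDs of all these genes pooled (0.82, 0.98 and 0.72). Among the dimmer of these genes the SDs were 0.45, 0.52 and 0.41, and among the brighter 0.36, 0.46 and 0.31. For dim genes at 72 h against 0 h the threshold thus lies within 2 SDs. These SDs leave out variation between cultures and any error that a whole array shares, such as its scaling.

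The labelled course from macrophage to osteoclast was seen in the markers. All 9 osteoclast markers on the array were called higher at 72 h than at 0 h, and 10 of 11 macrophage markers were called lower at both later times. Signals of other cell types also moved. The summed signal of 11 neutrophil and granulocyte precursor markers was 19198, 13207 and 1389 at 0, 24 and 72 h, that of 8 megakaryocyte and platelet markers 9568, 1881 and 911, and that of 9 stromal and osteoblast markers 2976, 3459 and 10443. Of 8 erythroid markers 6 were under the floor on all arrays, and their sum stayed between 112 and 116. The sums were 115, 121 and 208 for 9 mast cell and basophil markers, 153, 111 and 99.8 for 7 B cell markers, and 145, 71.0 and 52.8 for 7 T and NK cell markers, of which 6, 5 and 6 were never above the floor. In such bulk samples fewer cells of a type and less RNA per cell cannot be told apart, and the part of these other cells in the results on the antioxidant genes was not tested.

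Of the 58 members, 51 were above the floor on at least 1 array and 44 on all 3. The 7 never above it were Gpx2, Gpx5, Gpx6, Gsta2, Gstm6, Gstp3 and Txndc8, and they enter no comparison. At 24 h against 0 h, 8 of 50 measured members (16%) were called lower and 3 (6%) higher, where 9.22% and 13.2% of all 8439 measured genes were called lower and higher. At 72 h against 0 h, 7 of 51 (13.7%) were lower and 5 (9.80%) higher, beside 12.8% and 12.5% of 8558 genes. At 72 h against 24 h, 3 of 49 (6.12%) were lower and 4 (8.16%) higher, beside 10% and 6.92% of 8391 genes. The median log2 difference of the members was 0.10, -0.10 and -0.01 in these comparisons, and that of all genes 0.12, -0.01 and -0.14. The members' medians differed from those of all genes by -0.02, -0.09 and 0.13. On the deposited scale every later array is shifted upward. There 22 of 49 members were higher and 5 lower at 24 h against 0 h, beside 39.03% and 3.71% of all genes. Of 49 at 72 h, 15 were higher and 2 lower, beside 34.95% and 5.33%. Calls of higher and lower thus hold relative to the median gene only. The deposited scale took below 2-fold the 24 h calls of Nfe2l2, Nqo1 and Gstm2 against 0 h. It did so too for the 72 h calls of Nfe2l2, Keap1, Cat, Gpx3 and Gstk1 against 0 h. Quantile normalization and 2% trimmed mean scaling each gave 4 higher and 9 lower of 51 members at 72 h. Of all genes 11.7% and 10.4% were then higher, and 13.8% and 15.3% lower. With the floor raised to the 60th percentile the calls of Nqo1, Gpx8, Gsta3, Gstk1, Gstm2, Gstt1 and Gstt2 fell below 2-fold and Gstt3 was no longer measured, since these genes are dim.

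**Figure D1:**
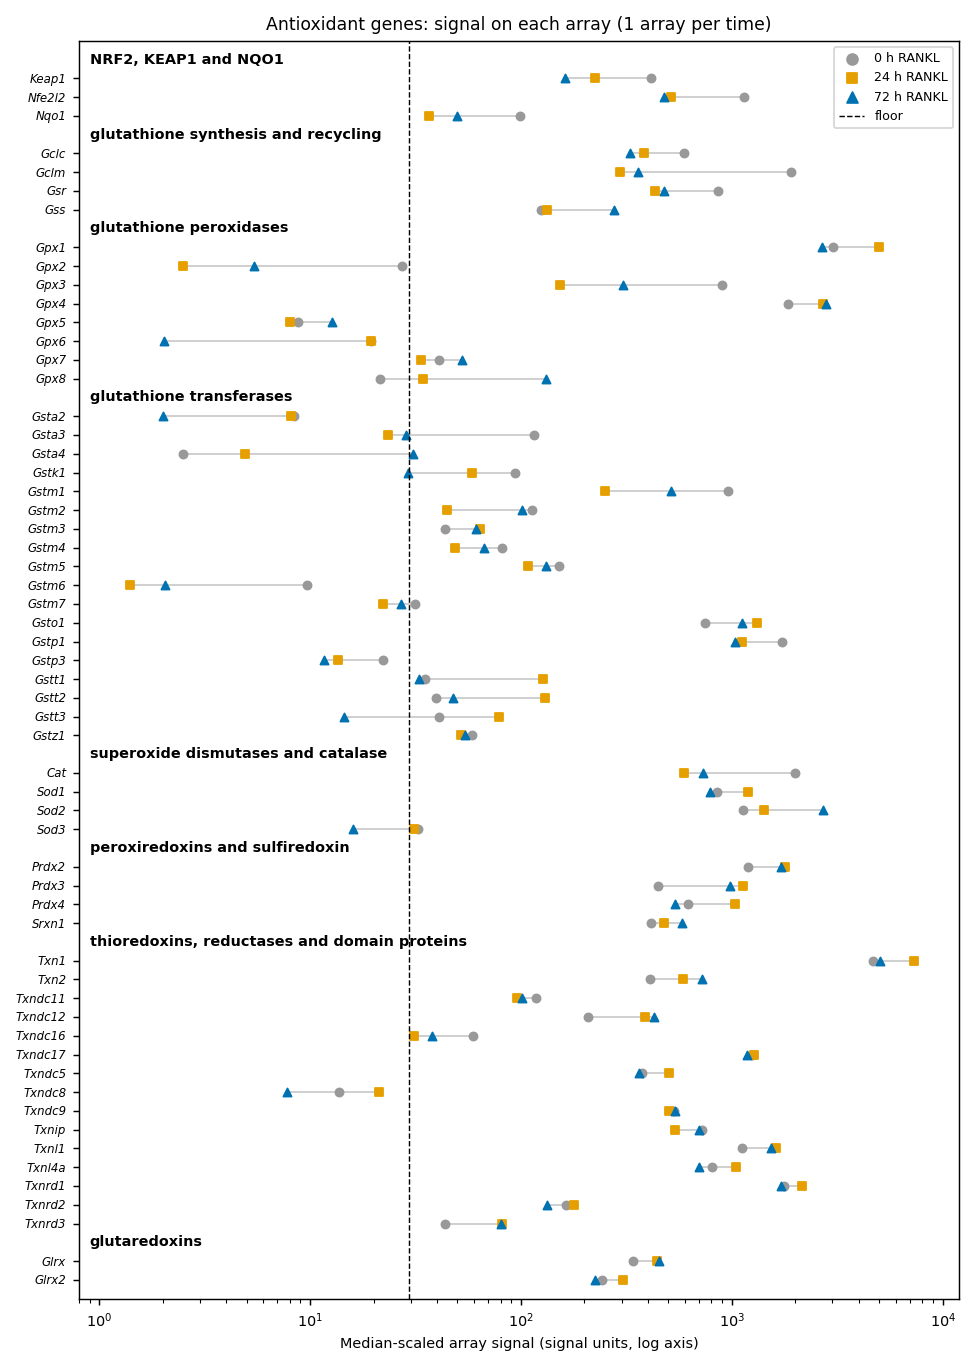
Median-scaled signal of each of the 58 members on each array (log axis, signal units), ordered by role, with the 0 h array as grey circles, 24 h as orange squares and 72 h as blue triangles. The dashed line is the floor of 29.6 units, and Gclm, Gpx3 and Cat show the 0 h array far to the right of the later ones, while Prdx3 and Sod2 show it at the left.

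The genes of NRF2 and KEAP1 and the known NRF2 target Nqo1 had lower signals after RANKL. Srxn1 and Txnrd1, which are among the other known targets, stayed within 2-fold by their brightest probe sets. Nfe2l2 itself had signals of 1146, 513 and 478 at 0, 24 and 72 h, which made it 2.24-fold lower at 24 h and 2.40-fold lower at 72 h than at 0 h. Both later arrays were thus close to each other and well under the 0 h array. Keap1, the adaptor that holds NRF2 in check, was at 413, 224 and 161, 1.84-fold below its 0 h level at 24 h, within 2-fold, and 2.56-fold lower at 72 h. A further Keap1 probe set read 119, 58.7 and 89.5, with log2 differences of -1.02 at 24 h and -0.42 at 72 h, so that the 72 h call rests on the brighter probe set. Nqo1, the quinone reductase often used as a readout of NRF2, had 98.9, 36.5 and 49.6, 2.71-fold lower at 24 h and 1.995-fold below at 72 h, just short of the 2-fold threshold. On the deposited scale the log2 differences of Nfe2l2 were -0.43 at 24 h and -0.49 at 72 h, the same direction but within 2-fold. Of Nfe2l2, Keap1 and Nqo1, 0 of 3 were called against 0 h on that scale.

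In the synthesis of glutathione the regulatory subunit and the last enzyme went opposite ways. Gclm, the modifier subunit of glutamate-cysteine ligase, the rate-limiting enzyme, had 1912, 296 and 358 at 0, 24 and 72 h. It was 6.47-fold lower at 24 h and 5.33-fold lower at 72 h, the largest decrease among the members in both comparisons, and it remained lower on every scaling tried, with log2 differences of -1.96 and -1.64 on the deposited scale. Gclc, the catalytic subunit, had 592, 384 and 327, within 2-fold of its 0 h level by factors of 1.54 and 1.81. Gss, glutathione synthetase, which completes the molecule, had 125, 133 and 277. It differed by a factor of 1.07 at 24 h and was 2.22-fold higher at 72 h than at 0 h, so that only the last array was high. Gsr, glutathione reductase, was at 861, 432 and 479, or 1.99-fold and 1.80-fold below 0 h. Its other probe set had 448, 423 and 482 with no difference near 2-fold, and the probe sets of this gene thus do not tell the same course.

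The RefSeq promoter windows of build GRCm38.p6, 300 bases around each gene's start, were searched for the core of the antioxidant response element, the sequence NRF2 binds, TGACNNNGC, on both strands. Of the members 51 had a window, and 10 of these (19.6%) held the core, beside 3781 of 27025 genes (13.99%). It was found in Gclm, Gsta3, Gstm5, Gstm7, Nfe2l2, Sod1, Srxn1, Txndc11, Txndc5 and Txnrd1. Of the 10 members called lower at 24 or 72 h, 3 held it. The AP-1 site TGANTCA, which the RANKL-induced Fos and Jun factors bind, was in the windows of Glrx, Gstm5, Gstp1 and Srxn1, 4 of 51 (7.84%) beside 8.97% of all genes, and in none of the 10 called lower. The AP-1 site can overlap the core, as it did in 149 windows of the whole table, but in 0 of the members. A match is a string of letters and not a binding site, and windows this short leave out distant enhancers. Stretches around the matches are given here for 3 members that were called lower (Gclm, Gsta3 and Nfe2l2). Such stretches are also given for 2 known NRF2 targets that stayed within 2-fold by their brightest probe sets (Txnrd1 and Srxn1). They lie at chr3:122245393-122245461 on the plus strand for Gclm, chr1:21240434-21240502 on the plus strand for Gsta3, chr2:75704865-75704913 on the minus strand for Nfe2l2, chr10:82859084-82859152 on the plus strand for Txnrd1 and chr2:152105392-152105573 on the plus strand for Srxn1. Each is written 5′ to 3′ on the strand of its gene, with matches in capitals. In Gclm, Txnrd1 and at the last match of Srxn1 the core stands on the other strand, and the first pair of capital runs in Srxn1 are AP-1 sites.
Gclm: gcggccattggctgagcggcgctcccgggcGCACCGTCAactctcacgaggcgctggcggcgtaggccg
Gsta3: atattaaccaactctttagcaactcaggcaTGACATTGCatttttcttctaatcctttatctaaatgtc
Nfe2l2: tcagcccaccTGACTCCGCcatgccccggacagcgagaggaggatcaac
Txnrd1: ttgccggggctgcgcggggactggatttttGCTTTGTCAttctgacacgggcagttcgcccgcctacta
Srxn1: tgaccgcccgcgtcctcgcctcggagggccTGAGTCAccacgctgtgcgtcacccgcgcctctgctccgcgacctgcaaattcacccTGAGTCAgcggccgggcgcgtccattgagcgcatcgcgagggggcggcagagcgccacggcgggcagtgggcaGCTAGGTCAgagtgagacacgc

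Catalase, the heme enzyme of peroxisomes that breaks down hydrogen peroxide, had 1994, 595 and 730 at 0, 24 and 72 h, 3.35-fold lower at 24 h and 2.73-fold lower at 72 h. A further Cat probe set gave 1408, 294 and 644, with log2 differences of -2.26 and -1.13, and both probe sets had their lowest signal at 24 h. Cat remained past 2-fold on the deposited scale at 24 h (log2 difference -1.02) but not at 72 h (-0.68).

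Among the glutathione peroxidases, some of them selenium enzymes, Gpx3 was lower and Gpx8 higher, and 3 others stayed within 2-fold. Gpx3, a secreted peroxidase, had 896, 154 and 306, 5.82-fold lower at 24 h and 2.93-fold lower at 72 h than at 0 h, with a 72 h signal 1.99-fold above that at 24 h. Gpx8, a membrane protein of the endoplasmic reticulum, had 21.5, 34.2 and 132, under the floor at 0 h. It was at least 4.45-fold higher at 72 h than at 0 h and 3.85-fold higher than at 24 h, and only its 72 h signal stood clear of the floor. The stromal and osteoblast markers had their high signal on the same array, with 5 of 8 measured called higher at 72 h than at 0 h and Col1a1, the main collagen of bone, at 205, 380 and 1433, and their part in the Gpx8 signal was not tested.

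Gpx1, the common cytosolic peroxidase, had 3023, 5009 and 2673, 1.66-fold above 0 h at 24 h and 1.87-fold below the 24 h signal at 72 h, so its highest array was that of 24 h. Gpx4, which reduces lipid peroxides in membranes and guards cells against ferroptosis, was at 1855, 2713 and 2791 by its brightest probe set, within 2-fold at factors of 1.46 and 1.51. Its other probe set read 1968, 1520 and 2076 and had its lowest signal at 24 h. Gpx7, a relative of Gpx8, was near the floor at 40.8, 33.6 and 52.6.

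Of the superoxide dismutases, which turn superoxide into hydrogen peroxide, only Sod2 was called. Sod2, the manganese enzyme of the mitochondrial matrix, had 1135, 1415 and 2721 at 0, 24 and 72 h and was 2.40-fold higher at 72 h than at 0 h, with a factor of 1.25 at 24 h. Another Sod2 probe set had 780, 927 and 1765, with a log2 difference of 1.18 at 72 h, and the third was at or near the floor. After quantile normalization the 72 h difference was 0.99, just within 2-fold. Sod1, the cytosolic copper and zinc enzyme, was at 847, 1196 and 789, within 2-fold throughout. Sod3, the extracellular form, lay near the floor at 32.4, 31.2 and 16.0.

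Peroxiredoxins reduce peroxides with a reactive cysteine. Of Prdx2, Prdx3 and Prdx4, only the mitochondrial Prdx3 was called by its brightest probe set. Prdx1, Prdx5 and Prdx6 were not among the members analysed. Prdx3 had 444, 1129 and 976 at 0, 24 and 72 h, 2.54-fold higher at 24 h and 2.20-fold higher at 72 h, and it kept that call under all 9 alternative settings. Both later arrays were high. Prdx2, a cytosolic form, had 1197, 1784 and 1720 by its brightest probe set, factors of 1.49 and 1.44 above 0 h. Its other, dimmer probe set read 65.4, 127 and 245, with log2 differences of 0.96 at 24 h and 1.91 at 72 h. By that probe set Prdx2 was past 2-fold at 72 h. Prdx4, the form of the endoplasmic reticulum, had 620, 1032 and 536, with its highest signal at 24 h (a factor of 1.67). Srxn1, which repairs overoxidised peroxiredoxins, had 414, 478 and 579, factors of 1.15 and 1.40 above 0 h, and its promoter with both kinds of match is among those shown above. By their brightest probe sets, all 4 lay above their 0 h signal at 24 h on each of the 5 scalings. On the median scale 3 of them did so by less than 2-fold. A dimmer Srxn1 probe set (56.9, 31.2 and 61.4) had a log2 difference of -0.87 at 24 h, while the gene's further probe sets had 0.21 and 0.20. The other Prdx4 probe sets had 0.06 and 0.22 at 24 h, and -0.54 and 0.43 at 72 h.

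In the thioredoxin system, 0 of 14 measured members were called at 24 h and 1 at 72 h against 0 h, with medians of 0.33 and -0.04 on the log2 scale. Of all measured genes 22.4% and 25.3% were called in either direction in these comparisons. Taken as deposited, 8 of the 14 were higher at 24 h and 4 at 72 h, with medians of 1.06 and 0.73. Of all genes 39.03% and 34.95% were higher on that scale, with medians of 0.78 and 0.68. The 72 h median of the 14 was 0.02 when arrays were scaled to their hybridization controls. Txn1, the cytosolic thioredoxin, had 4660, 7313 and 5022, a factor of 1.57 above 0 h at 24 h and 1.08 at 72 h. Txnrd1, the selenium-containing reductase that feeds it and a known NRF2 target, had 1771, 2157 and 1716, factors of 1.22 above and 1.03 below 0 h, whereas a dimmer probe set read 64.7, 150 and 182, with log2 differences of 1.22 and 1.49. Txnip, which binds and inhibits thioredoxin, was at 720, 540 and 702, within 2-fold. The single call was Txndc12, a thioredoxin-like protein of the endoplasmic reticulum, with 208, 386 and 429. It was 1.86-fold above 0 h at 24 h and 2.07-fold higher at 72 h, a call that 2% trimmed mean scaling took to a log2 difference of 0.92.

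The other domain proteins gave no calls. Txndc17, a cytosolic thioredoxin-like reductase, had 1241, 1271 and 1177, and Txnl1, a thioredoxin-like protein bound to the proteasome, 1123, 1628 and 1542, both within 2-fold. Txndc5, Txndc9, Txndc11, Txndc16, Txnl4a (a splicing factor with a thioredoxin fold) and Txnrd3 also stayed within 2-fold, with log2 differences against 0 h between -0.93 (Txndc16 at 24 h) and 0.90 (Txnrd3 at 24 h). The glutaredoxins, which remove glutathione from protein cysteines, had signals of 341, 443 and 449 for Glrx and 241, 306 and 224 for the mitochondrial Glrx2.

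Txn2, the mitochondrial thioredoxin, had 410, 589 and 722, factors of 1.44 and 1.76 above 0 h, and its 2 other probe sets had log2 differences of 1.18 and 0.80 at 72 h. Txnrd2, its mitochondrial reductase, had 164, 178 and 133, a factor of 1.23 below 0 h at 72 h.

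**Figure D2:**
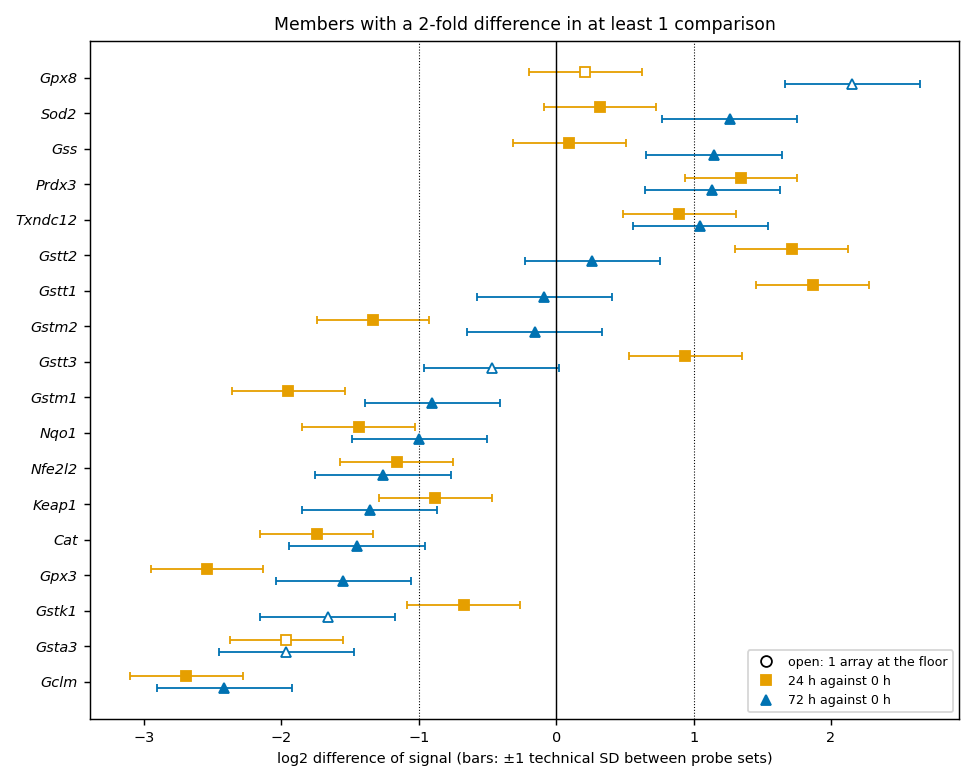
Log2 difference of signal for the 18 members called in at least 1 comparison, for 24 h against 0 h (orange squares) and 72 h against 0 h (blue triangles), with bars of 1 technical SD between probe sets (0.41 and 0.49) and dotted lines at 2-fold. Open symbols have 1 array at the floor and are bounds. Gclm, Gsta3, Gpx3, Cat and Nfe2l2 lie left of the lower line for both times, and Prdx3 right of the upper line for both.

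Glutathione transferases fell into classes with different courses. Of 14 measured at 24 h, 3 were called lower and 2 higher than at 0 h, beside 9.22% and 13.2% of all genes. Of 15 measured at 72 h, 2 were lower and 0 higher, beside 12.8% and 12.5%. Without rescaling, 2 of 13 were lower and 5 higher at 24 h, beside 3.71% and 39.03% of all genes. At 72 h, 1 of 14 was lower and 2 higher, beside 5.33% and 34.95%. The theta class members shared a high signal at 24 h. Gstt1 had 34.99, 128 and 32.9 at 0, 24 and 72 h, 3.65-fold higher at 24 h than at 0 h, and its 72 h signal was 3.88-fold lower than that at 24 h. Gstt2 had 39.7, 130 and 47.6, 3.28-fold higher at 24 h, with a 72 h signal 2.74-fold lower than at 24 h. Gstt3 had 40.9, 78.5 and 14.5, a factor of 1.92 above 0 h at 24 h, and was at least 2.66-fold lower at 72 h than at 24 h. For these genes the 24 h array alone was high, and the 0 h array lay just above the floor. With the floor at the 60th percentile the calls of Gstt1 and Gstt2 were lost, at log2 differences of 0.47 and 0.49 for 24 h against 0 h. In the order of GRCm38.p6 the theta genes neighbour each other on chromosome 10 with 0 other protein-coding genes between them. Each has 1 probe set here, and cross-hybridization among these related transcripts was not tested.

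The mu class had the opposite course in its called members. Gstm1, the main mu enzyme of many tissues, had 964, 249 and 516, 3.87-fold lower at 24 h than at 0 h and 2.07-fold higher at 72 h than at 24 h. Of its 3 other probe sets, 2 had log2 differences of -2.11 and -1.53 at 24 h against 0 h, and the dimmest, under the floor at 24 h, was at least 2.41-fold lower. For 72 h against 24 h they gave 1.37, 0.67 and, as a bound, 0.29, so 1 of the 3 was past 2-fold, and the mean over probe sets was 0.96, short of the threshold. Gstm2 had 113, 44.7 and 101, 2.52-fold lower at 24 h and 2.26-fold higher at 72 h than at 24 h. For both the 24 h array was the low one. Gstm4 (81.3, 48.8 and 67.1) and Gstm5 (152, 108 and 132) also had their lowest signal at 24 h but within 2-fold, while Gstm3 (43.8, 63.7 and 61.4) had its lowest at 0 h. The mu genes are close paralogs that neighbour each other on chromosome 3, and the brightest Gstm1 probe set is of a design that can match several transcripts. Without such probe sets the log2 difference of Gstm1 at 24 h was -2.11.

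**Figure D3:**
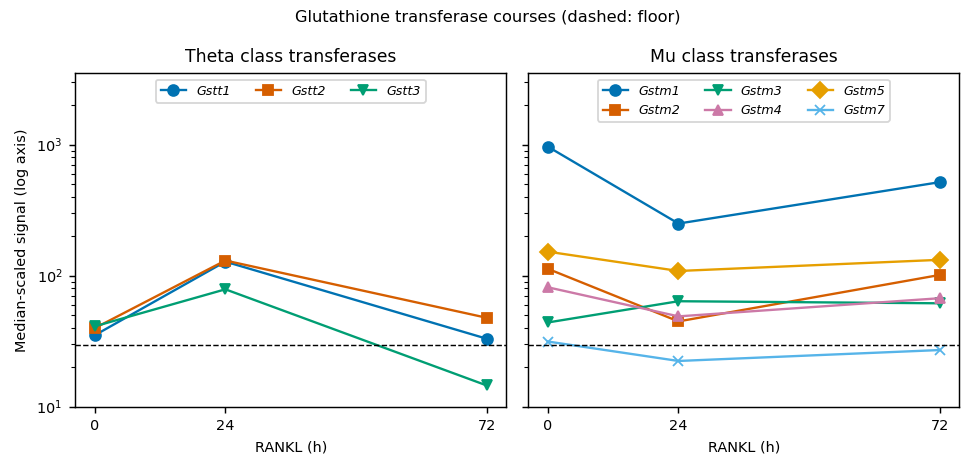
Median-scaled signal (log axis) of the theta class (left) and mu class (right) transferases against hours of RANKL, 1 array per point, with the floor dashed. Gstt1 and Gstt2 peak near 130 units at 24 h, where Gstm1 and Gstm2 have their lowest points of 249 and 44.7.

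Among the other transferases, Gsta3, an alpha class enzyme, had 115, 23.3 and 28.4, under the floor at both later times and at least 3.90-fold lower in each. Its other probe set was under the floor on all arrays. Gstk1, the kappa enzyme of mitochondria and peroxisomes, had 93.7, 58.8 and 29.1, a factor of 1.59 below 0 h at 24 h and at least 3.17-fold lower at 72 h. Gstp1, the pi class enzyme, had 1734, 1113 and 1035, factors of 1.56 and 1.67 below 0 h. Gsto1, an omega class enzyme, was at 750, 1323 and 1113, a factor of 1.76 above 0 h at 24 h. Gstz1, the zeta enzyme of tyrosine breakdown, stayed between 51.9 and 58.6. Gsta4 and Gstm7 were at or near the floor.

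The genes around these enzymes were read from 5 lists chosen for their known roles, with earlier results of these data known. Their counts stand beside the shares of all measured genes given above, 13.2% higher and 9.22% lower at 24 h, and 12.5% higher and 12.8% lower at 72 h. On the deposited scale these shares were 39.03% and 3.71% at 24 h, and 34.95% and 5.33% at 72 h. In the list of other NRF2 targets and heme or iron protection, 5 of 17 measured genes were lower and 2 higher at 24 h, and 4 lower and 2 higher at 72 h. The medians were -0.20 and -0.06. On the deposited scale they were 0.53 and 0.71, with 4 lower and 5 higher at 24 h, and 3 lower and 5 higher at 72 h. Hmox1, the heme oxygenase, had 1724, 168 and 288, 10.3-fold lower at 24 h and 5.99-fold lower at 72 h. Blvrb, which reduces the biliverdin that heme oxygenases produce, had 2149, 424 and 502 and was 4.28-fold lower at 72 h, and Osgin1, a growth inhibitor induced by oxidative stress, was 4.08-fold lower. Akr1b8, an aldo-keto reductase, went the other way with 71.6, 242 and 323, 4.50-fold higher at 72 h. Targets of NRF2 thus did not share 1 direction.

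The partners and rivals of NRF2 had 3 of 12 measured genes lower and 1 higher at 24 h, and 3 of 13 lower and 2 higher at 72 h. The balance turned on the deposited scale, with 0 of 13 lower and 2 higher at 24 h, and 1 lower and 6 higher at 72 h. Bach1, a repressor that competes with NRF2 for its sites, had 1087, 470 and 314 and was 3.46-fold lower at 72 h. Mafg, a small Maf protein that pairs with both, had 529, 199 and 166 and was 3.20-fold lower. Nfe2, a blood cell relative of NRF2 that drives platelet formation, was at least 2.80-fold lower, and Maff, another small Maf, at least 2.47-fold higher.

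Among the sources of oxidants, 3 of 13 measured genes were lower and 0 higher at 24 h, and 4 lower and 1 higher at 72 h. The medians were -0.20 and -0.59. Without rescaling, 2 were lower and 1 higher at 24 h, and 4 lower and 4 higher at 72 h, with medians of 0.53 and 0.18. Cybb, the catalytic subunit of the phagocyte NADPH oxidase, had 649, 162 and 95.5, 4.01-fold lower at 24 h and 6.79-fold lower at 72 h. Ncf1, a cytosolic subunit of the same oxidase, was 7.51-fold lower at 72 h, and the proton channel Hvcn1 4.28-fold lower. Mpo, the peroxidase of neutrophil granules, was at least 46.7-fold lower. The 11 measured neutrophil markers, of which Mpo is one, were all called lower at 72 h against 0 h, and which cells carried the oxidase signal was not tested.

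In the list of cystine import and NADPH supply, 4 of 20 measured genes were higher and 3 lower at 24 h, and 5 higher and 3 lower at 72 h. Without rescaling, 7 of 21 were higher and 1 lower at 24 h, and 11 of 19 were higher with 1 lower at 72 h. Chac1, which breaks down glutathione in the cytosol, had 32.7, 41.5 and 139, 4.25-fold higher at 72 h, and Anpep, an aminopeptidase that cleaves its products outside the cell, was 3.25-fold higher. Ggt5, a transpeptidase that cleaves glutathione outside the cell, had 196, 29.9 and 21.4 and was at least 6.62-fold lower. Me2, a mitochondrial malic enzyme, was 2.94-fold higher. Slc7a11, the cystine carrier and a known NRF2 target, stayed within 2-fold at 59.3, 52.0 and 31.1, and G6pdx was not analysed here.

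The last list held other thiol and peroxide enzymes, with 8 of 25 measured genes lower and 1 higher at 24 h, and 8 lower and 3 higher at 72 h. Its medians of -0.52 and -0.53 lay below the members' medians of 0.10 and -0.10. Taken as deposited they were 0.21 and 0.24, with 7 lower and 2 higher at 24 h, and 7 lower and 5 higher at 72 h. Sesn1, a sestrin, was 9.24-fold lower at 72 h, and Selenop, the selenium transport protein, had 8086, 1618 and 1015 and was 7.96-fold lower. Alox5ap, which serves leukotriene synthesis, was 7.04-fold lower. The microsomal glutathione transferases, a family apart from the members, parted ways. Mgst1 had 2389, 333 and 268, 8.91-fold lower at 72 h, and Mgst2 had 278, 83.3 and 61.7, 4.50-fold lower. Mgst3 had 167, 468 and 1128, 6.75-fold higher. Mgst3 was singled out after its values were seen, and Mgst2 is given to complete the family.

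**Figure D4:**
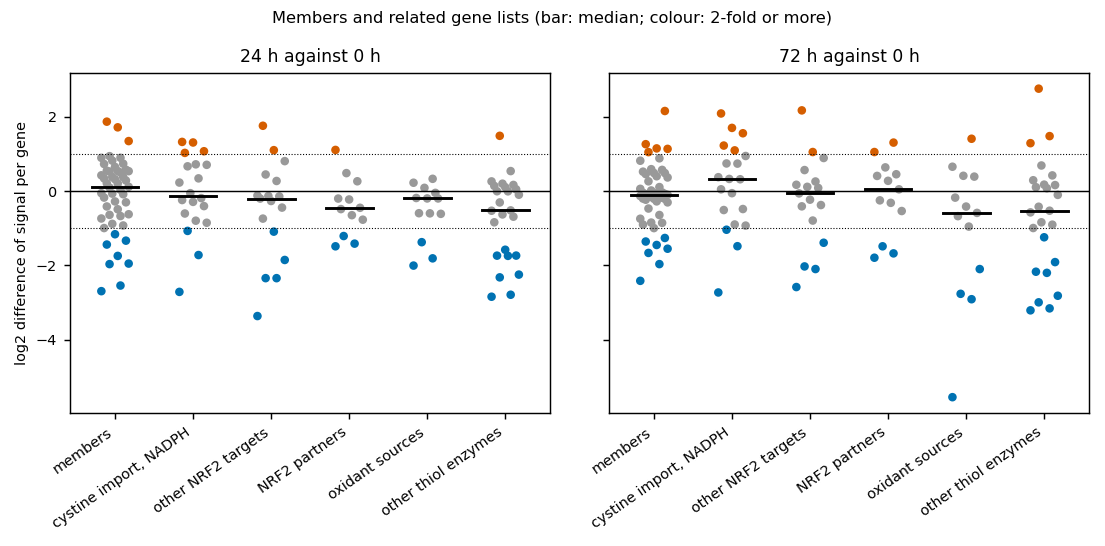
Log2 difference of signal per gene for the members and the 5 lists, for 24 h against 0 h (left) and 72 h against 0 h (right), with 1 point per measured gene, black bars at medians, dotted lines at 2-fold and colour for genes past it (orange higher, blue lower). The members' medians of 0.10 and -0.10 lie near 0, and the other thiol enzymes have medians of -0.52 and -0.53.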

How the data were processed

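The deposited table gives linear intensity signals for 22690 probe sets (64 controls) on each array. MAS5 made them, per the submitters' processing notes, and no version of it is given in the sources used here. GEO's 2016 annotation named 1 gene for 20380 probe sets, and probe sets with several (691) or none (1555) named no gene, among them 9 that list a member beside another gene. All 58 members matched a RefSeq gene of GRCm38.p6 by identifier, used for names, neighbours and promoters.

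From these values, log2 signals were centred on each array's median over gene probe sets, floored at the 40th percentile of all arrays pooled and compared between times with pandas 2.3.3 and NumPy 2.4.6. The code was tested on simulated data. A gene was its brightest single-symbol probe set. The text gives all signals of members called in any comparison and of the 10 brightest, and up to 4 called genes per list beside Hmox1, Slc7a11, Cybb, Bach1 and G6pdx. Precision is limited by the number of arrays. The members and lists were chosen with earlier results of these data known. A planned search of protein sequences was not run. The alternatives were the scaling of arrays, the floor and the choice of probe sets.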

Additional observations from a re-analysis of the deposited data

How the results depend on the processing

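No paired analysis was possible because each time has 1 array, and no array could be left out. The 9 alternatives changed no sign of a called member: of 30 called differences 9 kept their call under all 9 and none reversed. Gstt3 at 72 h against 24 h kept its call under 8 and was not measured with the floor at the 60th percentile. That floor took 12 others below 2-fold and the deposited scale 8. On the deposited scale the members' medians were 0.82 at 24 h and 0.67 at 72 h against 0 h, beside 0.78 and 0.68 for all genes. There 22 and 15 of 49 members were higher and 5 and 2 lower, with the shares of all genes given above. With the floor at the 60th percentile 1 of 40 members was higher and 5 lower at 24 h against 0 h, beside 13.2% and 8.35% of all genes. At 72 h against 24 h, 2 of 38 were higher and 0 lower, beside 5.92% and 9.16%. With the floor at the 20th percentile 11 of 57 were lower at 72 h against 0 h, beside 15.0% of all genes. At 72 h against 24 h 6 of 55 were lower, beside 11.7%. With no floor 13 and 7 of 58 were lower in these comparisons, beside 18.4% and 15.3%, since more dim genes were measured. Quantile normalization gave 3 of 50 higher and 10 lower at 24 h against 0 h, beside 10.1% and 11.4% of all genes. Trimmed mean scaling gave 3 of 50 higher and 11 lower, beside 9.13% and 12.5%. At 72 h against 0 h each gave 4 of 51 higher and 9 lower, with the shares given above. Averaging probe sets gave 4 of 47 higher and 7 lower at 24 h, beside 12.9% and 8.85% of all genes. At 72 h it gave 7 of 48 higher and 5 lower, beside 13.0% and 11.5%. It left Gsta3 with log2 differences of -0.91 at both times against 0 h and Keap1 with -0.89 at 72 h. Signals near the floor, such as those of the theta transferases and Nqo1, limit what can be read.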

Other observations

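Further probe sets of members that were not called by their brightest one went past 2-fold in 4 genes against 0 h. A Prdx2 probe set with signals of 65.4, 127 and 245 at 0, 24 and 72 h had a log2 difference of 1.91 at 72 h, against 0.52 for the brightest, and the mean over its probe sets was 1.21. A Txn2 probe set had 1.18 at 72 h, against 0.82. A Txnrd1 probe set had 1.22 at 24 h and 1.49 at 72 h, against 0.28 and -0.05. A Txndc5 probe set had 1.05 at 24 h, against 0.42. The brightest and the next probe set of a member had the same sign in 20 of 24 members for 24 h against 0 h, in 14 of 24 for 72 h against 0 h and in 18 of 25 for 72 h against 24 h.

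There were 13 log2 differences of members between 0.9 and 1.1 in size, next to the 2-fold threshold. At 24 h against 0 h these were Gsr (-0.99), Txndc16 (-0.93) and Gstt3 (0.94). At 72 h against 0 h they were Nqo1 (-0.996), Gstm1 (-0.90) and Txndc12 (1.05). At 72 h against 24 h they were Gstk1 (-0.99), Prdx4 (-0.95), Gpx1 (-0.91), Sod2 (0.94), Gpx3 (0.99), Gstm1 (1.05) and Gss (1.05).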
